A study of Mus musculus with 24 samples.

Results

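Potassium channel genes of the mouse heart are described here, chosen as every gene of the normalized count table whose symbol begins with Kcn. There were 78 of them among 24239 genes, and 34 of them reached a mean of 50 normalized counts over the 24 libraries. Of these, 31 are described by name, and counts of members are over all of them. The hearts came from male mice of a C57BL6J background in 4 groups of 6, killed 12 weeks after surgery. cSirt5KO TAC hearts were bred to lack Sirt5, a mitochondrial deacylase, in cardiomyocytes and had undergone transverse aortic constriction (TAC), which narrows the aorta and overloads the left ventricle. cSirt5KO Sham hearts had the same genotype and a mock operation. Control TAC and Control Sham hearts came from transgenic mice that did not express the recombinase. The deletion was driven by a Myh6-cre transgene, which is active in cardiomyocytes, so the other cells of the heart kept the gene. Since only the cSirt5KO mice carried the recombinase, an effect of Cre and an effect of Sirt5 loss cannot be told apart in these groups. The age of the mice at surgery was not given in the sources used here. RNA was taken from whole hearts.

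Potassium channels return the heart muscle cell to its resting voltage after each beat and hold it there between beats. Voltage-gated channels open on depolarization and carry the transient outward and delayed rectifier currents, inward rectifiers pass current near the resting voltage, and tandem-pore channels leak at most voltages. The pore is built from several pore-forming subunits, and auxiliary subunits set how many channels reach the membrane and how fast they open and close. Loss of repolarizing current and a longer action potential are textbook features of the hypertrophied and failing heart. The mouse ventricle repolarizes mainly through the transient outward current and fast delayed rectifiers, while the human ventricle depends more on the channels of KCNH2 and KCNQ1.

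All 61 pore-forming members shared a run of 5 codons that encodes the selectivity filter, the part of the pore that lets potassium pass and holds back sodium. This run was searched in the annotated main transcript of each gene as threonine or serine, then valine, isoleucine, leucine, methionine, alanine or threonine, then glycine, then tyrosine or phenylalanine, then glycine. None of the 13 auxiliary subunits in the table held it, and 5 of the 8 tandem-pore (Kcnk) members held it in both of their pore loops. The stretches of 45 coding bases around it are printed for 7 members on which the results below turn, because they show what makes these genes members of 1 family and how far they have diverged. They are written 5′ to 3′ on the coding strand, with the 15 filter bases in capitals, from GENCODE transcripts of GRCm39.
Kcnd2: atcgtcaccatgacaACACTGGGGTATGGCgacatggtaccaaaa
Kcnv2: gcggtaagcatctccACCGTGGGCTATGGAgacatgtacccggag
Kcnc1: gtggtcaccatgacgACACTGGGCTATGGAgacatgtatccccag
Kcnh2: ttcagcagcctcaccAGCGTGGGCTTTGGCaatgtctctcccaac
Kcnj2: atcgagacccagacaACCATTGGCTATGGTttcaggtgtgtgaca
Kcnj3: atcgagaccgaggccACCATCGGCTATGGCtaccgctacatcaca
Kcnj5: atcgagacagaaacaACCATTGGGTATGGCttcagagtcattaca
The stretches lie on chr7:46077382-46077426 (plus strand) for Kcnc1, chr5:24530538-24530582 (minus) for Kcnh2, chr11:110963018-110963062 (plus) for Kcnj2, chr2:55327624-55327668 (plus) for Kcnj3 and chr9:32233840-32233884 (minus) for Kcnj5. Those of Kcnd2 (chr6:21217390-21714155, plus) and Kcnv2 (chr19:27301555-27311083, plus) are split by an intron. Where a member overlaps another annotated gene, the other gene lies on the opposite strand, and the library kit kept the strand.

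Depth was 22.5 to 35.8 M reads per library (M, 1e6). Sirt5 held 85.6 to 259 normalized counts in 10 of the 12 cSirt5KO hearts and 388 to 807 in the 12 Control hearts, but the libraries labelled cSirt5KO TAC replicates 2 and 4 held 886 and 499. Calls that involve cSirt5KO TAC hearts are therefore also given without these libraries where they change. The libraries fell into 2 sets by the share of reads counted on the strand opposite to abundant genes, 10 libraries in set 1 and 14 in set 2, with 4 cSirt5KO Sham libraries but only 2 of each other group in set 1. The numbers in the table's column headers also fell into a low series (under 200), a middle series and a high series (600 and over). cSirt5KO TAC held 2 low and 4 middle numbers and cSirt5KO Sham 2 middle and 4 high ones, whereas Control TAC held 4 low and 2 high and Control Sham 4 low and 2 middle ones. Mitochondrially encoded genes took 11.2 to 24.9% of reads in cSirt5KO TAC, 15.1 to 28.4% in cSirt5KO Sham, 14.99 to 20.3% in Control TAC and 21.4 to 24.7% in Control Sham hearts. In whole-heart RNA, fewer cells of a type and less RNA per cell cannot be told apart. Levels below are normalized counts, which grow with transcript length, and triplets of values are the lowest, the median and the highest of the 6 hearts of a group.

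The summed level of the potassium channel genes was lower after TAC in both genotypes. Their summed level was 29782, 32163 and 35219 in cSirt5KO TAC hearts, against 37944, 38794 and 40000 in cSirt5KO Sham hearts. In Control TAC hearts it was 25586, 28563 and 34050.3, against 37474, 41467 and 44997 in Control Sham hearts. In neither genotype did any TAC heart reach the lowest Sham heart. The mean sum after TAC was 83.1% of the Sham mean in cSirt5KO and 70.9% in Control hearts. The genes Kcnk3, Kcnip2, Kcnj3, Kcnj5 and Kcnh2 together made up 72.8% of the difference in means in Control hearts. In cSirt5KO hearts Kcnk3, Kcnip2, Kcnj11, Kcnj5 and Kcnj3 made up 72.3% of it. The sums thus mainly follow a few abundant genes. The log2 change after TAC was positive for 27 of the 78 members in Control and for 31 in cSirt5KO hearts. The 34 members with a mean of at least 50 held 98.5% of the summed level over all libraries.

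**Figure D1:**
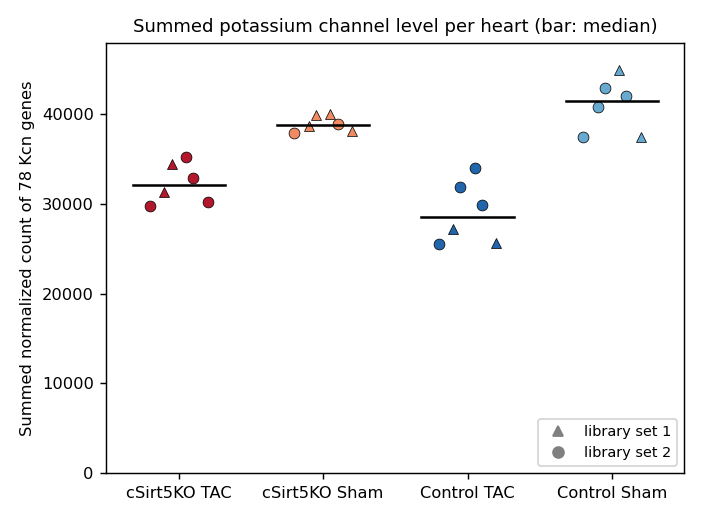
Summed normalized count of the 78 Kcn genes (vertical axis, from 0) in each of 24 hearts by group, with the median of each group as a bar and the library set as the point shape. TAC hearts lie between 25586 and 35219 and Sham hearts between 37474 and 44997, and library sets 1 and 2 are found at both levels.

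Divided by the length of all annotated exons, the most abundant members were Kcnip2, the calcium-binding subunit of the transient outward channel (1114 normalized counts per kilobase), Kcnj11, the pore of the ATP-sensitive channel (1070.3), and Kcnk3, an acid-sensitive leak channel (807.7). Kcnh2, which carries the rapid delayed rectifier current, followed at 426.9 and Kcng2, a silent subunit that modifies other pores, at 299.7. The pores of the transient outward current were far scarcer at this scale, with 96.6 for Kcnd2 and 47.1 for Kcnd3. By class, the 33 voltage-gated pore genes held a median of 32.9% of the summed count in cSirt5KO TAC, 31.0% in cSirt5KO Sham, 31.8% in Control TAC and 29.7% in Control Sham hearts. The 12 inward rectifier genes held 26.4%, 28.9%, 28.6% and 31.4% in the same groups. The share of the 13 auxiliary genes was 15.7% in cSirt5KO TAC and 15.8% in cSirt5KO Sham hearts, and 11.1% in Control TAC and 13.001% in Control Sham hearts. The lowest and highest shares of each class overlapped between TAC and Sham in both genotypes, apart from the 8 calcium- and sodium-activated genes, which held 3.34 to 4.06% in Control TAC and 2.78 to 3.10% in Control Sham hearts, and the voltage-gated genes, which held 30.7 to 34.2% in Control TAC and 27.7 to 30.3% in Control Sham hearts.

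The first comparison asked how pressure overload changed these genes in hearts with Sirt5. A gene was called when its adjusted p in limma was under 0.1 and its change exceeded 1.5-fold. In Control hearts 12 of the 78 members fell after TAC and 3 rose, which is 15.4% and 3.85% of the members, where 3.26% of all 24239 genes fell and 3.78% rose (7.03% called in all). Among the 34 members with a mean of at least 50, 11 fell and 2 rose, against 4.42% falling and 4.96% rising among the 12167 genes that reach a mean of 50. Over the members, the median log2 change was -0.20 for all 78 and -0.24 for these 34, and it was 0.01 over all genes. For 10 of the 34 every Control TAC heart was below every Control Sham heart, which held for 5.02% of the 12167 genes of that level. In cSirt5KO hearts 2 members fell after TAC and none rose, where 0.421% of all genes fell and 0.672% were called. The median change of the members there was -0.18, and it was -0.01 over all genes. Of the 78 members 47 were negative, where 51.9% of all 24239 genes were. DESeq2 called 4 members there, where it called 1.21% of all genes. With the header series as a covariate 8 members were called, with Kcnip2, Kcnj3, Kcnj5, Kcnd3, Kcnj12, Kcnv2 and the low gene Kcng4 lower and Kcnj14 higher. The share of all genes called with this covariate is not given here, so whether 8 is many for the family cannot be judged. The TAC comparisons of the genotypes share no library.

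**Figure D2:**
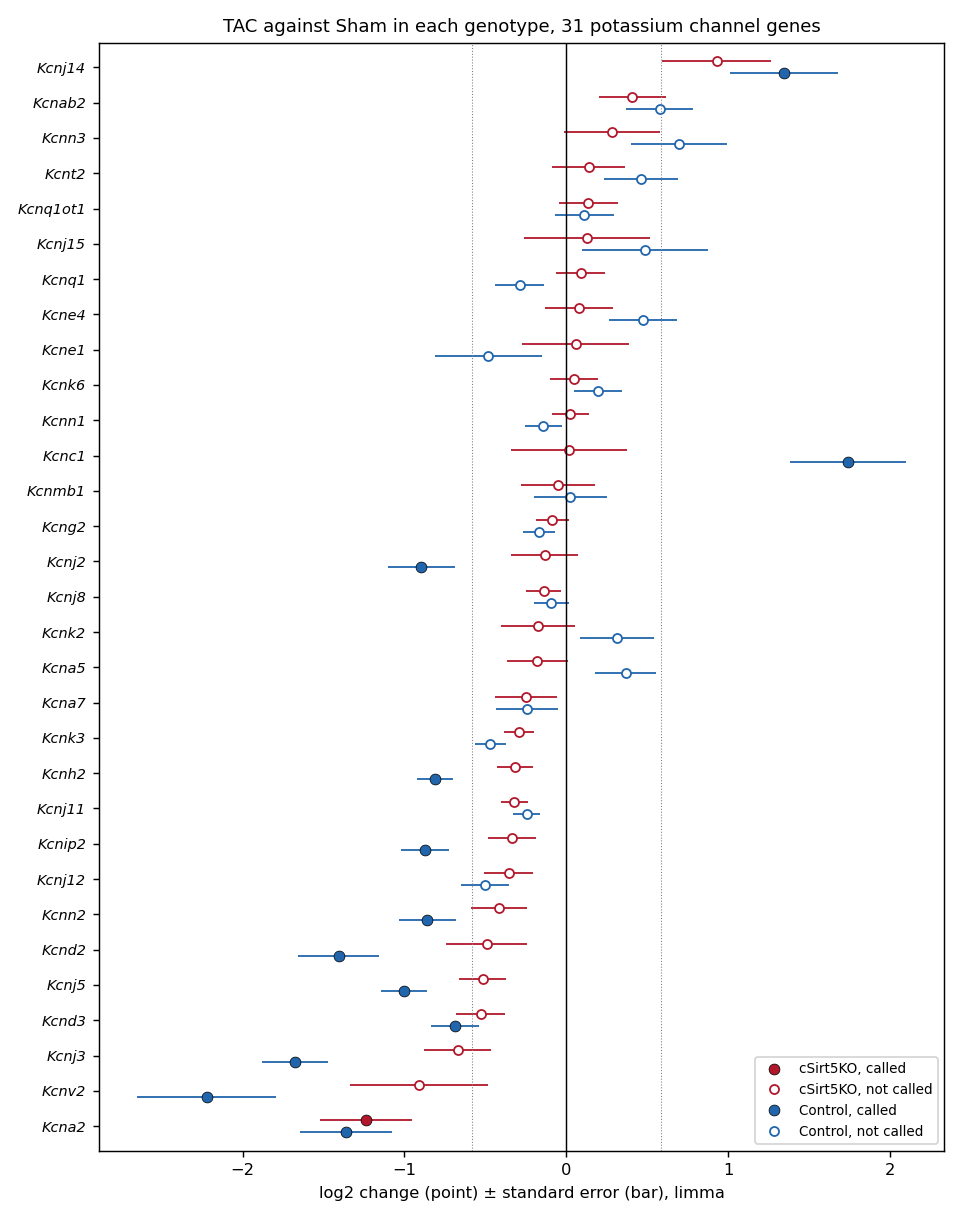
Log2 change of TAC against Sham for the 31 genes described by name in cSirt5KO hearts (upper point of each pair) and Control hearts (lower point), with standard errors from limma as bars and dotted lines at 1.5-fold. Filled points are called genes. The largest falls in Control hearts are those of Kcnv2 (-2.22) and Kcnj3 (-1.68), and Kcna2 is called in both genotypes.

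Kcnd2, Kcnd3 and Kcnip2, genes of the fast transient outward current, were each called lower after TAC in Control hearts. Kcnd2 and Kcnd3 encode its pores in the mouse, and Kcnip2 their calcium-binding partner. Kcnd2 held 185, 409 and 523 in cSirt5KO TAC hearts, 248, 563 and 621 in cSirt5KO Sham hearts, 192, 370.0 and 574 in Control TAC hearts and 731, 963 and 1213 in Control Sham hearts. All 6 Control TAC hearts lay below the Control Sham hearts, and the cSirt5KO Sham hearts did so too, while cSirt5KO TAC hearts overlapped with cSirt5KO Sham hearts. After TAC the log2 change was -1.40 ± 0.25 (standard error) in Control hearts (adjusted p = 0.000347) and -0.49 ± 0.25 in cSirt5KO hearts (adjusted p = 0.456). Kcnd3 held 216, 344 and 456 in cSirt5KO TAC hearts, 386, 529.6 and 551 in cSirt5KO Sham hearts, 307, 393.9 and 525 in Control TAC hearts and 562, 611 and 775 in Control Sham hearts. Its groups were again separate in Control hearts, with a log2 change of -0.69 ± 0.15 (adjusted p = 0.00273). The call was lost in library set 2 alone (-0.55, adjusted p = 0.13) and kept in set 1 alone (-0.95, adjusted p = 0.0228). In cSirt5KO hearts the change was -0.53 ± 0.15 and missed the threshold (adjusted p = 0.107).

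Kcnip2 had 3483, 4427 and 5418 in cSirt5KO TAC hearts, 4378, 5573 and 6635 in cSirt5KO Sham hearts, 1903, 2717 and 3889.6 in Control TAC hearts and 4361, 4643 and 7148 in Control Sham hearts. Control TAC hearts were the lowest group and did not reach any Control Sham heart. The log2 change after TAC was -0.87 ± 0.15 in Control (adjusted p = 0.000246) and -0.33 ± 0.15 in cSirt5KO hearts (adjusted p = 0.382). In library set 2 alone the fall in Control hearts was -0.57, just under 1.5-fold (adjusted p = 0.0193), and in set 1 alone it was -1.48. In set 2 all 4 Control TAC and all 4 Control Sham hearts carried low header numbers.

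Kcnv2, a silent subunit that forms channels only together with pores of another subfamily, showed the largest fall of all members. It held 54.7, 74.5 and 130.3 in cSirt5KO TAC hearts, 94.4, 128 and 312 in cSirt5KO Sham hearts, 12.4, 108 and 231 in Control TAC hearts and 389.8, 415 and 518 in Control Sham hearts. Control Sham hearts stood above all 18 other hearts. After TAC its log2 change was -2.22 ± 0.43 in Control hearts (adjusted p = 0.000835), and it was -1.66 without Control TAC replicate 5, whose 12.4 normalized counts were far below the other 5 Control TAC hearts. In cSirt5KO hearts the change was -0.91 ± 0.43 (adjusted p = 0.414). With the header series as a covariate it was -2.06 there, and was called (adjusted p = 0.0049 in limma).

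**Figure D3:**
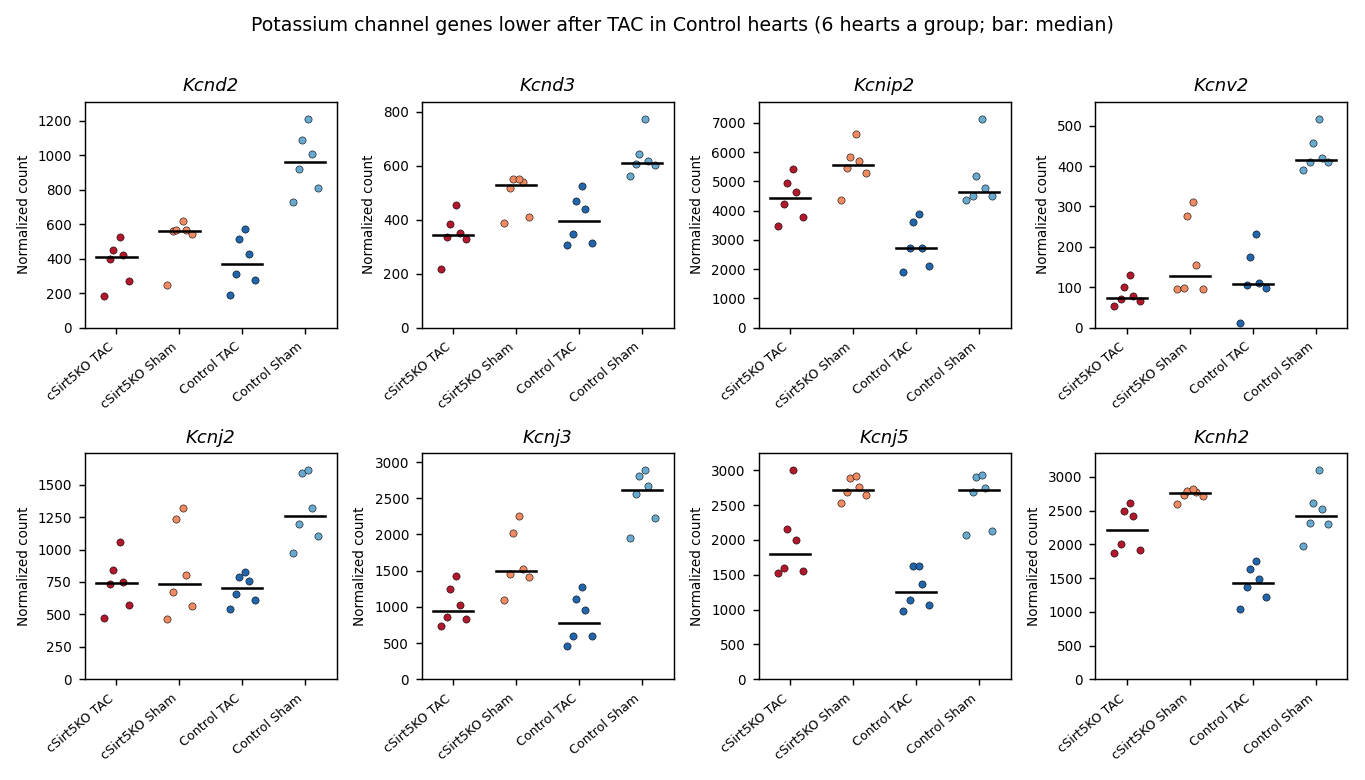
Normalized counts (vertical axes, each from 0) of 8 genes called lower after TAC in Control hearts, 1 point per heart and a bar at the median of each group. Control TAC hearts lie below all Control Sham hearts for each of the 8 genes, and for Kcnd2, Kcnd3 and Kcnv2 cSirt5KO Sham hearts do too.

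Inward rectifiers were split. Kcnj2 carries most of the resting current of the ventricle, and Kcnj3 and Kcnj5 together form the channel that acetylcholine opens, which is known mainly from atrial and nodal cells. Kcnj3 held 730.2, 947 and 1429 in cSirt5KO TAC hearts, 1099, 1491 and 2252 in cSirt5KO Sham hearts, 466, 778 and 1272 in Control TAC hearts and 1957, 2614 and 2888 in Control Sham hearts. No Control TAC heart reached a Control Sham heart, and the log2 change was -1.68 ± 0.20 (adjusted p = 5.54e-06). In cSirt5KO hearts TAC and Sham overlapped and the change was -0.67 ± 0.20 (adjusted p = 0.144, called by DESeq2 with an adjusted p of 0.0491). Kcnj5 held 1518, 1797 and 2999.7 in cSirt5KO TAC hearts, 2536, 2719 and 2917 in cSirt5KO Sham hearts, 984, 1252 and 1628 in Control TAC hearts and 2072, 2716 and 2926 in Control Sham hearts. Its fall was -1.001 ± 0.14 in Control hearts (adjusted p = 3.22e-05), with separate groups. In cSirt5KO hearts it was -0.52 ± 0.14, which passed the p threshold (adjusted p = 0.0951) but not the fold limit. 1 cSirt5KO TAC heart, at 2999.7, was above every cSirt5KO Sham heart.

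Kcnj2 held 469.6, 740.2 and 1057 in cSirt5KO TAC hearts, 466, 737 and 1317 in cSirt5KO Sham hearts, 538, 706 and 828 in Control TAC hearts and 976, 1259 and 1612 in Control Sham hearts. It fell by 0.89 on the log2 scale in Control hearts (standard error 0.21, adjusted p = 0.00479), where the highest TAC heart was below the lowest Sham heart. In cSirt5KO hearts TAC and Sham medians were nearly equal and the change was -0.13 ± 0.21 (adjusted p = 0.85). Kcnj12, a second pore of the same current, changed by -0.50 ± 0.15 in Control (adjusted p = 0.0295) and by -0.36 ± 0.15 in cSirt5KO hearts (adjusted p = 0.335), in neither case beyond 1.5-fold. Kcnj14, of the same subfamily and known from neurons, moved the other way. It held 89.6, 96.2 and 207 in cSirt5KO TAC hearts, 44.7, 60.6 and 73.7 in cSirt5KO Sham hearts, 52.9, 112 and 295 in Control TAC hearts and 17.7, 45.5 and 92.8 in Control Sham hearts. The rise in Control hearts was 1.35 ± 0.34 (adjusted p = 0.0083) although the groups overlapped, and it was 2.92 in library set 1 alone (adjusted p = 0.0313) and 0.56 in set 2 alone (adjusted p = 0.42). In cSirt5KO hearts the groups did not overlap, which held in that direction for 0.584% of genes that reach a mean of 50, but the change of 0.93 ± 0.34 was not called in limma (adjusted p = 0.238). It was called there by DESeq2 (0.99, adjusted p = 0.0899) and with the header series as a covariate (1.47, adjusted p = 0.0284).

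Kcnj11 and Kcnj8 encode the pores of the ATP-sensitive channels of muscle and vessel. Kcnj11 held 2780.4, 3257 and 3864 in cSirt5KO TAC hearts, 3909, 4138 and 4501 in cSirt5KO Sham hearts, 3155, 3851 and 4368 in Control TAC hearts and 4062, 4540.1 and 4804 in Control Sham hearts. Its change was small and alike in size, -0.32 ± 0.08 in cSirt5KO (adjusted p = 0.0733) and -0.24 ± 0.08 in Control hearts (adjusted p = 0.0609), both short of 1.5-fold, and in cSirt5KO hearts the TAC and Sham groups did not overlap, which held in that direction for 0.83% of genes that reach a mean of 50. For Kcnj8 the medians of the 4 groups lay between 962 and 1076, and no comparison passed the threshold. Kcnj15 ranged from 21.5 to 106.8 over all hearts and was not called either.

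Delayed rectifier genes differed in their course. Kcnh2 held 1868, 2212 and 2613 in cSirt5KO TAC hearts, 2606, 2758 and 2827 in cSirt5KO Sham hearts, 1041, 1422 and 1761 in Control TAC hearts and 1973, 2417 and 3100.3 in Control Sham hearts. Control TAC hearts were below all hearts of the other 3 groups. The log2 change was -0.81 ± 0.11 in Control hearts (adjusted p = 2.71e-05) and -0.32 ± 0.11 in cSirt5KO hearts (adjusted p = 0.231). Kcnq1, the pore of the slow delayed rectifier current, held 831, 1451 and 1765 in cSirt5KO TAC hearts, 971, 1332 and 1617 in cSirt5KO Sham hearts, 667, 852 and 1022 in Control TAC hearts and 844, 1052 and 1244 in Control Sham hearts. Its change after TAC was -0.29 ± 0.15 in Control (adjusted p = 0.282) and 0.09 ± 0.15 in cSirt5KO hearts (adjusted p = 0.863). Kcna5, a pore of the ultrarapid current, had medians of 699 in cSirt5KO TAC, 748 in cSirt5KO Sham, 727 in Control TAC and 609.9 in Control Sham hearts, and none of its comparisons passed the threshold.

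Kcna2 was the only named member called after TAC in both genotypes, and with the header series as a covariate its call in cSirt5KO hearts was lost (-1.03, adjusted p = 0.118). It encodes a shaker-type pore known from axons and also found in cardiomyocytes, and it held 30.2, 52.4 and 65.3 in cSirt5KO TAC hearts, 74.5, 111 and 196 in cSirt5KO Sham hearts, 27.1, 37.2 and 100.1 in Control TAC hearts and 73.0, 112 and 184 in Control Sham hearts. In cSirt5KO hearts the TAC and Sham groups did not overlap and the fall was -1.24 ± 0.28 (adjusted p = 0.0429). In Control hearts it was -1.36 ± 0.28 (adjusted p = 0.00185) with overlapping groups. Kcna1, a close relative and a low gene with a mean of 28.2, fell by 2.19 in cSirt5KO hearts (adjusted p = 0.076) and by 1.69 in Control hearts (adjusted p = 0.0581) on the log2 scale. With the header series as a covariate the Kcna1 call in cSirt5KO hearts was lost as well (-1.59, adjusted p = 0.212). The Kcna1 call in Control hearts was kept with this covariate (-2.14, adjusted p = 0.0196). It was lost in set 1 alone (-0.38, adjusted p = 0.827) and in set 2 alone (-2.35, adjusted p = 0.145). Leaving out 1 library in turn also lost it in 6 of 24 fits. Both cSirt5KO calls were lost within each library set, where the Kcna2 change was -1.07 in set 1 (adjusted p = 0.488) and -1.26 in set 2 (adjusted p = 0.73), and without cSirt5KO Sham replicate 3 or replicate 4 (Kcna2 adjusted p = 0.102 and 0.141). For Schwann cell markers, genes of the glia around nerve fibres, the summed level over 5 genes was 282 to 470.3 in cSirt5KO TAC, 459.4 to 736 in cSirt5KO Sham, 233 to 468 in Control TAC and 279.8 to 534 in Control Sham hearts. Their part in the Kcna1 and Kcna2 results was not tested.

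Of the shaw subfamily, whose fast channels are known from neurons that fire at high rates, Kcnc1 and Kcnc4 rose in Control hearts. Kcnc1 held 26.1, 45.7 and 81.0 in cSirt5KO TAC hearts, 24.8, 47.6 and 64.0 in cSirt5KO Sham hearts, 52.0, 128 and 235 in Control TAC hearts and 19.9, 30.2 and 100.0 in Control Sham hearts. 5 of the 6 Control TAC hearts were above every Control Sham heart, and the log2 change was 1.74 ± 0.36 (adjusted p = 0.00166). In cSirt5KO hearts TAC and Sham levels coincided, with a change of 0.02 ± 0.36 (adjusted p = 0.994). Kcnc4, with a mean of only 9.68, also rose in Control hearts (1.90 ± 0.53, adjusted p = 0.0186).

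**Figure D4:**
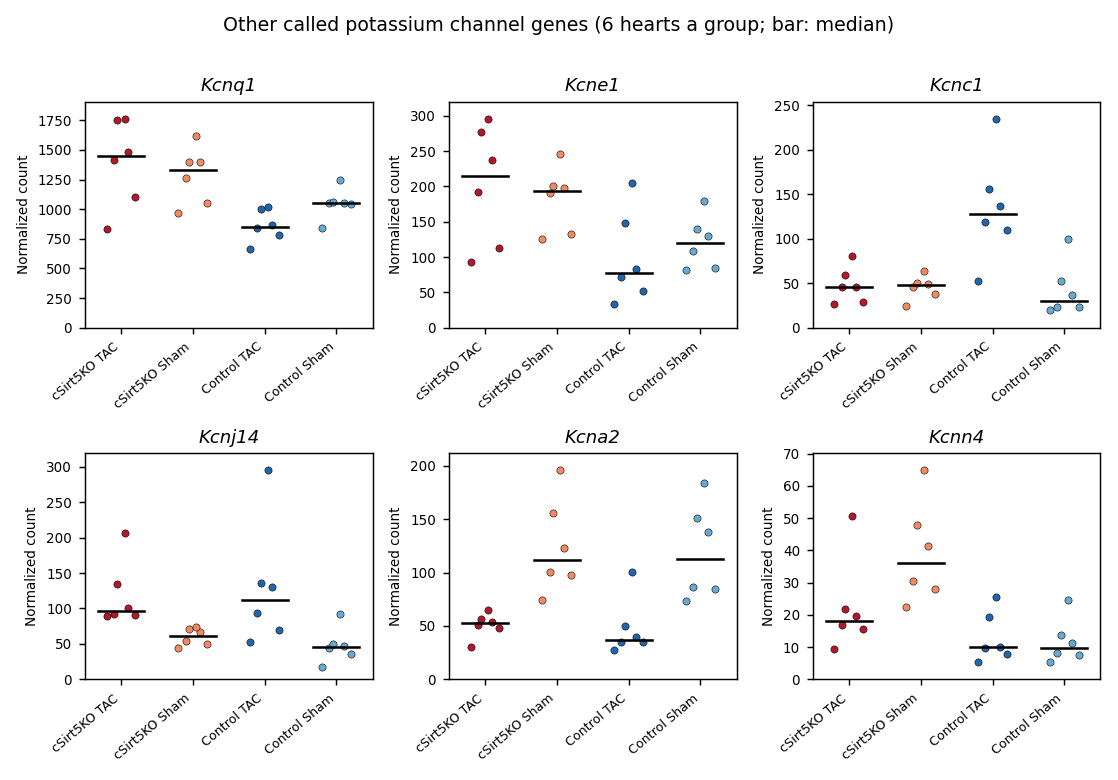
Normalized counts (vertical axes, each from 0) of 6 further called genes, 1 point per heart and a bar at the median of each group. Kcnc1 is high in Control TAC hearts, Kcna2 is low after TAC in both genotypes, and Kcnn4 is highest in cSirt5KO Sham hearts, where it ranges from 22.4 to 64.9.

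Calcium-activated and tandem-pore channels showed 1 call between them after TAC. Kcnn2, a small-conductance calcium-activated channel, held 219, 312 and 503 in cSirt5KO TAC hearts, 384, 408 and 544 in cSirt5KO Sham hearts, 187, 307 and 361 in Control TAC hearts and 355, 529 and 597 in Control Sham hearts. The Control TAC hearts overlapped the Control Sham hearts only slightly, and it changed there by -0.86 ± 0.17 (adjusted p = 0.00145), and in cSirt5KO hearts the change was -0.42 ± 0.17 (adjusted p = 0.334). Kcnn3, a close relative, had a change of the other sign in Control hearts, 0.70 ± 0.30, which was not called (adjusted p = 0.157) except by DESeq2 (0.76, adjusted p = 0.0642). Kcnn1 changed by -0.14 ± 0.11 (adjusted p = 0.538). Kcnk3, the member with the highest count, held 5439, 6563 and 7678 in cSirt5KO TAC hearts, 7561, 8121 and 8531 in cSirt5KO Sham hearts, 5475, 6032 and 7779.5 in Control TAC hearts and 8190.5, 8841 and 9924 in Control Sham hearts. All Control TAC hearts were below all Control Sham hearts, and the log2 change of -0.47 ± 0.09 passed the p threshold (adjusted p = 0.00132) but not the fold limit. The stretch-sensitive leak channel Kcnk2 (0.31 ± 0.23, adjusted p = 0.494) and Kcnk6 (0.19 ± 0.15, adjusted p = 0.512) were not called in Control hearts. Among auxiliary genes other than Kcnip2, Kcnab2, a cytoplasmic partner of shaker-type pores, changed by 0.58 ± 0.21 in Control hearts (adjusted p = 0.0734), just short of 1.5-fold.

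The remaining named members were not called in any comparison. Kcng2 had medians of 3173 in cSirt5KO TAC, 3507 in cSirt5KO Sham, 2998 in Control TAC and 3454 in Control Sham hearts. Kcna7 ranged from 66.0 to 184 over all hearts, Kcnt2, a sodium-activated channel, from 72.8 to 314, Kcne4 from 65.3 to 181 and Kcnmb1, a subunit of the large-conductance channel of smooth muscle, from 30.5 to 82.7. Kcnq1ot1, a long non-coding RNA read from the opposite strand within Kcnq1 and no channel itself, ranged from 123 to 352. The 44 members with a mean under 50 included 1 called lower and 1 called higher after TAC in Control hearts (Kcna1 and Kcnc4). 26 of all 78 members had a count of 0 in at least 1 library.

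The second question was how cSirt5KO hearts differed from Control hearts without overload. After Sham surgery 4 members were lower and 1 was higher in cSirt5KO hearts, which is 5.13% and 1.28% of the members, where 0.549% of all genes were lower and 1.48% higher (2.03% called). The 4 lower ones were Kcnd2 (-0.93 ± 0.25, adjusted p = 0.0532), Kcnv2 (-1.50 ± 0.43, adjusted p = 0.0677), Kcnj2 (-0.71 ± 0.21, adjusted p = 0.0748) and Kcnj3 (-0.66 ± 0.20, adjusted p = 0.0932). Each of them was also among the members that fell after TAC in Control hearts, and the comparisons share the Control Sham hearts. Groups did not overlap for Kcnd2, Kcnv2 and Kcnd3, which held in that direction for 2.45% of genes that reach a mean of 50. The highest cSirt5KO Sham heart held 621 normalized counts of Kcnd2 and the lowest Control Sham heart 731. For Kcnj2 and Kcnj3 the groups overlapped. Kcnn4, a calcium-activated channel of blood and immune cells with a mean of 21.6, was higher (1.71 ± 0.41, adjusted p = 0.0328), with 22.4, 35.9 and 64.9 in cSirt5KO Sham and 5.41, 9.83 and 24.6 in Control Sham hearts. Of 7 macrophage markers 3 were called higher in cSirt5KO Sham hearts (C1qa, C1qb and Lyz2), and their summed level was 9624 to 17253.5 in cSirt5KO Sham and 5840 to 10352 in Control Sham hearts. Their part in the Kcnn4 result was not tested.

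All 5 of these calls were lost with the header series as a covariate, where the change was -0.47 for Kcnd2 (adjusted p = 0.689), -0.29 for Kcnv2 (adjusted p = 0.876), -0.47 for Kcnj2 (adjusted p = 0.614), -0.34 for Kcnj3 (adjusted p = 0.742) and 1.15 for Kcnn4 (adjusted p = 0.543). Only the middle series held Sham hearts of both genotypes, 2 of each. There Kcnj2 was 1237 and 1317 in cSirt5KO and 976 and 1612 in Control hearts, Kcnv2 277 and 312 in cSirt5KO and 389.8 and 518 in Control hearts, and Kcnd2 561 and 568 in cSirt5KO and 731 and 920.4 in Control hearts. Kcnj3 was 1458 and 1524 in cSirt5KO and 1957 and 2562 in Control hearts of this series. Kcnn4 was 27.9 and 64.9 in cSirt5KO and 8.27 and 24.6 in Control hearts of it. The 4 cSirt5KO Sham hearts of the high series held 94.4 to 156 counts of Kcnv2 and 466 to 801 of Kcnj2, and both were below all other Sham hearts. With 4 low-series Control and 4 high-series cSirt5KO hearts making up the rest, series and genotype cannot be told apart in these. Library set 1 alone gave no call and set 2 alone gave 8, among them all 5. In set 2 every cSirt5KO Sham heart was of the high series and every Control Sham heart of the low series. Series and genotype therefore cannot be told apart in the set 2 calls, and the share of all genes called in that set is not given here.

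The genotypes were compared after TAC in the same way. In cSirt5KO TAC hearts 4 members were higher and 1 was lower than in Control TAC hearts, which is 5.13% and 1.28% of the members, where 1.93% of all genes were higher and 1.32% lower (3.25% called). DESeq2 called 8 members, where it called 3.35% of all genes. Kcnh2 held 1868, 2212 and 2613 in cSirt5KO TAC and 1041, 1422 and 1761 in Control TAC hearts, a difference of 0.66 ± 0.11 (adjusted p = 0.00127). It was the only named member whose groups did not overlap, which held in that direction for 2.18% of genes that reach a mean of 50. Kcnip2 differed by 0.68 ± 0.15 (adjusted p = 0.00892), and the groups overlapped. Kcnq1 was higher by 0.66 ± 0.15 (adjusted p = 0.0112). Kcne1, the auxiliary subunit that slows the Kcnq1 channel, held 93.0, 215 and 296 in cSirt5KO TAC hearts, 125, 194 and 247 in cSirt5KO Sham hearts, 33.995, 77.4 and 205 in Control TAC hearts and 81.9, 119 and 179 in Control Sham hearts. It was higher after TAC in cSirt5KO hearts by 1.14 ± 0.33 (adjusted p = 0.0396). For both subunits of the slow current the cSirt5KO TAC and Control TAC groups overlapped. Kcnj5 was also higher but did not reach 1.5-fold in limma (0.58 ± 0.14, adjusted p = 0.0158). It was called there by DESeq2 (0.60, adjusted p = 0.00225) and by edgeR (0.61, adjusted p = 0.0140).

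**Figure D5:**
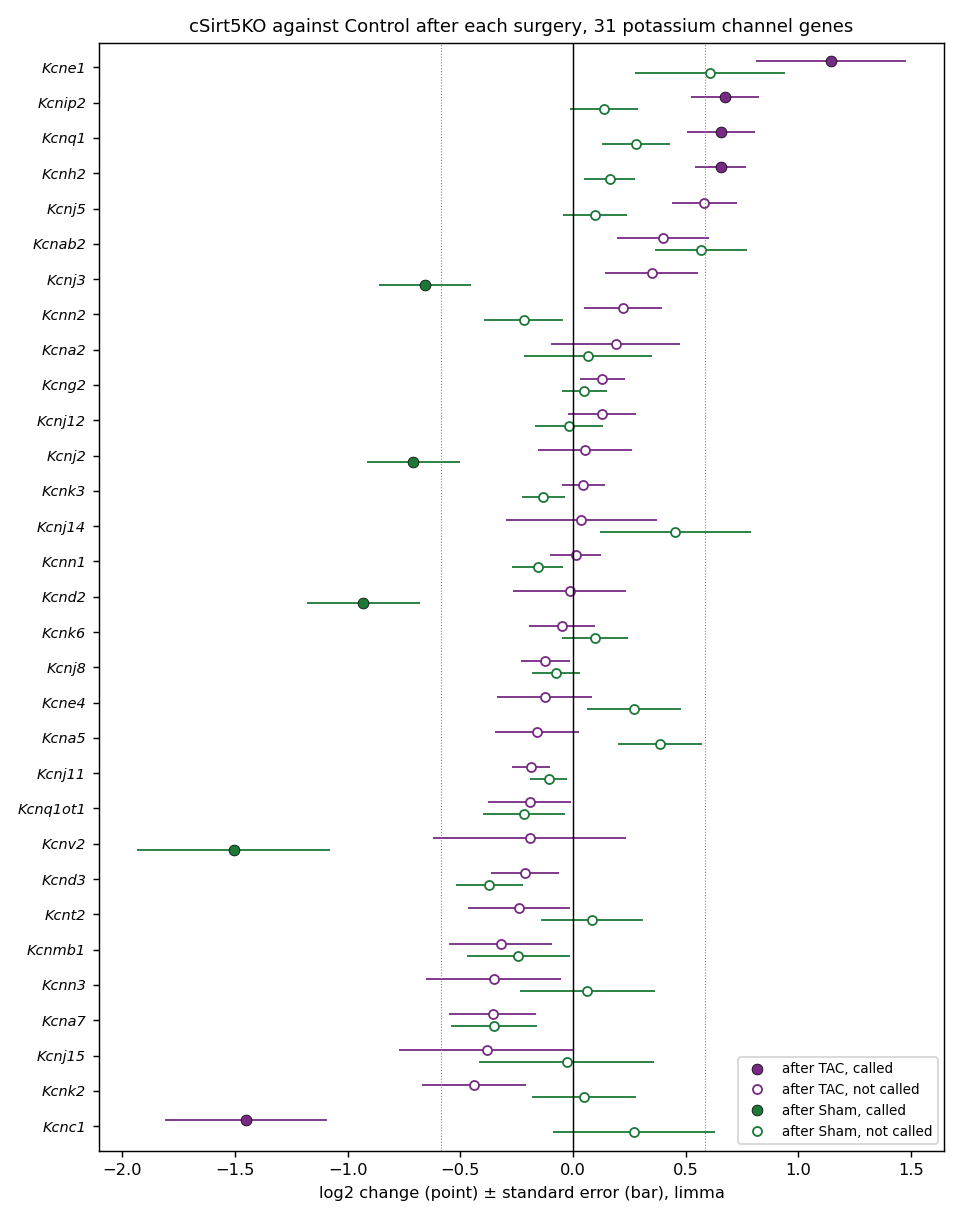
Log2 change of cSirt5KO against Control hearts for the 31 genes described by name after TAC (upper point of each pair) and after Sham (lower point), with standard errors from limma as bars and dotted lines at 1.5-fold. Filled points are called genes. Kcnd2, Kcnj2, Kcnj3 and Kcnv2 are called after Sham, and Kcne1, Kcnip2, Kcnq1, Kcnh2 and Kcnc1 after TAC.

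Kcnc1 was the only member called lower in cSirt5KO than in Control hearts after TAC. The difference was -1.45 ± 0.36 (adjusted p = 0.0168), with 26.1, 45.7 and 81.0 in cSirt5KO TAC and 52.0, 128 and 235 in Control TAC hearts. Without the libraries labelled cSirt5KO TAC replicates 2 and 4 the difference was -1.31 and the call was lost (adjusted p = 0.108), while Kcnh2 remained at 0.64 (adjusted p = 0.00701) and Kcnip2 at 0.61 (adjusted p = 0.0721). The Kcne1 call was lost without Control TAC replicate 6 (adjusted p = 0.118) and without cSirt5KO TAC replicate 4 (adjusted p = 0.107). With the header series as a covariate the difference was 0.55 for Kcnh2 and 0.54 for Kcnip2, both under 1.5-fold, and 0.91 for Kcne1 (adjusted p = 0.208). Kcnq1 (0.61, adjusted p = 0.0535) and Kcnc1 (-1.56, adjusted p = 0.0339) stayed called with this covariate. The low genes Kcna6 (1.61, adjusted p = 0.0447) and Kcna4 (1.13, adjusted p = 0.0877) were called higher in addition. Library set 1 alone, with 2 hearts a group, gave no call. Set 2 alone gave 5, of which Kcnh2 and Kcnc1 were among the 5 above and Kcnip4, Kcnk2 and Kcnn4 were not.

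The difference between the TAC responses of the genotypes was tested as an interaction. No member was called by limma, where 0.0908% of all genes were. DESeq2 called 2 members and 1.11% of all genes, and the edgeR quasi-likelihood test 0 members and 0.103% of all genes. The members DESeq2 called were Kcnj3, whose fall was smaller in cSirt5KO hearts (0.92 ± 0.30, adjusted p = 0.0852), and Kcnc1, whose log2 change was lower there (-1.58 ± 0.51, adjusted p = 0.0903). With limma these interactions were 1.01 ± 0.29 (adjusted p = 0.201) and -1.72 ± 0.51 (adjusted p = 0.208). For Kcnh2 the interaction was 0.49 ± 0.16 (adjusted p = 0.268), and for Kcnd2 it was 0.91 ± 0.35 (adjusted p = 0.351). Falls called in Control but not in cSirt5KO hearts are thus not shown to differ between the genotypes by the test used for the other comparisons.

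Genes that work with these channels but carry other names were counted from a list of 16 partners, of which 15 were in the table. None was called after TAC in either genotype, 1 was called between genotypes after Sham and 2 after TAC. Abcc9, the sulphonylurea receptor that joins Kcnj11 and Kcnj8, passed the p threshold in Control hearts without reaching 1.5-fold (-0.51 ± 0.16, adjusted p = 0.0372). Abcc8, the other receptor, held 1369, 1473 and 1679 in cSirt5KO Sham and 1024, 1117 and 1202 in Control Sham hearts (0.42 ± 0.09, adjusted p = 0.0233). Dpp10, a transient outward partner, was called higher in cSirt5KO than in Control hearts after TAC (1.88, adjusted p = 0.0196) and Sham (2.07, adjusted p = 0.0294), but its mean was 2.3 normalized counts. Lrrc55, which modifies the large-conductance channel, was lower in cSirt5KO TAC (14.2, 23.5 and 50.9) than in Control TAC hearts (43.2, 65.9 and 104; adjusted p = 0.0486). Irx3, Irx4 and Irx5, transcription factors that pattern Kcnd2 across the ventricular wall, had log2 changes of -0.10, -0.17 and -0.22 after TAC in Control hearts, none of them called.

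Cell type markers were read beside these results. Ventricular markers summed to 1310580 to 2553380 in cSirt5KO TAC, 1783810 to 2562380 in cSirt5KO Sham, 1069910 to 1800550 in Control TAC and 1772320 to 2151810 in Control Sham hearts. The median sums were 1812520, 1878300, 1467780 and 1970940 in the same order. After TAC the median log2 change of the 8 markers was -0.39 in Control and -0.20 in cSirt5KO hearts. Only 1 of the 8 (Tnni3, -0.78) was called, lower after TAC in Control hearts. Of the atrial markers only Nppa, which ventricles also make under load, was called (3.74 after TAC in Control hearts, 2.10 in cSirt5KO against Control hearts after Sham). The atrial light chain Myl7 held 0, 2.52 and 1141 in cSirt5KO TAC, 3.38, 672 and 5554 in cSirt5KO Sham, 0, 0.91 and 118 in Control TAC and 0, 33.7 and 629 in Control Sham hearts. It was listed at 0 in some TAC and some Control Sham hearts. Its change after TAC was -4.61 in cSirt5KO and -1.88 in Control hearts, neither of them called. Of 6 conduction system markers 3 were called lower after TAC in Control hearts (Hcn4 -1.16, Cacna1g -0.74, Cntn2 -1.78), and their summed level was 785 to 1531 in Control TAC and 1544 to 2463 in Control Sham hearts, without overlap. After TAC Cntn2 was called higher in cSirt5KO than in Control hearts (2.12), and the sum of the list was 1149.8 to 2525 in cSirt5KO TAC hearts. Of the fibroblast markers 2 of 5 rose after TAC in Control hearts (Col1a1 0.99, Lum 0.59), with sums of 19767 to 52798 in Control TAC and 17011.5 to 26241 in Control Sham hearts. The part of these cell types in the potassium channel results was not tested.

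Windows of 100 bases before the most upstream RefSeq start (build GRCm38.p6) are shown for 3 of the 4 genes that were lower both after TAC in Control hearts and in cSirt5KO Sham hearts, 5′ to 3′ on the gene's strand, with motif matches in capitals.
Kcnd2 (chr6:21215246-21215345, plus): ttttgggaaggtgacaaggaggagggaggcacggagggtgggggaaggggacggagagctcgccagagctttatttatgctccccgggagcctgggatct
Kcnj2 (chr11:111066064-111066163, plus): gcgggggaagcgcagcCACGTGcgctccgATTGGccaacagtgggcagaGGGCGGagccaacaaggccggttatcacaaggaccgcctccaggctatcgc
Kcnj3 (chr2:55435870-55435969, plus): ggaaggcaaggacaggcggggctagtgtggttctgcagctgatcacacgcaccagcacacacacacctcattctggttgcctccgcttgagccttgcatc
Over 250 bases before the start and on both strands, GGGCGG was found in 8 of the 11 called members that had a promoter entry, and in 33.0% of all 27025 promoters. CCAAT was found in 3 (Kcnip2, Kcnj2 and Kcnj3) and in 34.5% of all, and CACGTG in 2 (Kcnn4 and Kcnj2) and in 6.04% of all. TATAAA and AGATAA were found in 0 of the 11 and in 12.98% and 10.2% of all. The 250 bases held 6 (Kcnn4) to 30 (Kcnc1) CG pairs in the 11 members, against a median of 6 over all promoters. The part of CG content in the GGGCGG matches was not tested, and members that were not called were not counted. Of the windows shown, only that of Kcnj2 holds matches, and a match is a description of letters only.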

How the data were processed

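RNA of 24 whole mouse hearts was sequenced as directional paired-end libraries, 6 per group. The authors trimmed the reads with Trim Galore 0.6.6 and CutAdapt 2.6 and aligned them to the mouse genome (mm39) with STAR 2.7.3a; the counter is not given in the sources used here. The deposited values are a signal per gene and library, read counts that the authors divided by DESeq2 1.30.1 size factors, for genes with at least 10 reads in all. Each library's values were whole multiples of 1 step, so read numbers were recovered for 100% of values (within 2.51e-08 of a whole number). The table's own columns of group comparisons (fold changes and p-values) were not used.

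Samples were grouped by the genotype and treatment of the labels. Log2(normalized count + 1) was fitted with limma 3.58.1 (trended variance) in R 4.3.3, with 1 term per group, all 24 libraries and Benjamini-Hochberg adjustment over all 24239 genes. Adjusted p-values are from limma unless another tool is named, and fold changes on this scale understate the change of low genes. Alternatives were other offsets (0.5 and 5), a minimum mean of 10, other scalings, DESeq2 1.42.0 and edgeR 4.0.16 on recovered reads, library set or header series as covariates, each set alone, the replicate number as a block, and leaving out libraries. On recovered reads DESeq2 called 294 genes for TAC in cSirt5KO hearts, 811 for genotype after TAC and 268 for the interaction, and edgeR called 25 for the interaction. The fit was tested on simulated data. The script that drew the figures used Python 3.11.15 and matplotlib 3.10.9.

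Members are all symbols beginning with Kcn. Those with a mean of at least 50 were named, the called ones in full, and lower ones only where called. A few genes that meet this rule, and a few markers, are not reported here. Members and gene lists were chosen with earlier results of these data known. The labels do not say whether replicates differ in more than the animal, so p-values measure the spread between these libraries. The closest pair of libraries within a group differed by 8.87 times the sampling noise (chi-square per degree of freedom), so none was treated as a repeat.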

Additional observations from a re-analysis of the deposited data

Results flagged for a closer look

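In 8 of 124 groups of 6 hearts, 1 heart stood far from the other 5 by Dixon's test, where chance gives about 1 group in 20. Control Sham replicate 2 had the highest Kcnip2 (7148 normalized counts, next 5184) and Kcnn1 (562, next 447) and the lowest Kcnk2 (44.9, next 101) of its group. In Control TAC hearts, replicate 5 was lowest for Kcnv2 (12.4, next 98.6), and replicate 2 was lowest for Kcnj15 (22.5, next 63.1). In cSirt5KO Sham hearts, replicate 5 was lowest for Kcnd2 (248, next 545), and replicate 4 was highest for Kcnn2 (544, next 427) and Kcnk6 (201, next 159.9). The Control TAC library of replicate 2 also had the largest share of ribosomal RNA, 23.4% of reads, against 0.509 to 4.19% in the other libraries. Its part in the Kcnj15 value was not tested.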

How the results depend on the processing

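The number of members called for TAC in Control hearts (15) stayed within 1.5 times under every alternative run, and was 14 to 18 when libraries were left out in turn. For TAC in cSirt5KO hearts (2) it was 4 with DESeq2, 1 with only the groups compared, 1 with library set as a covariate, 0 in set 1 alone and 0 in set 2 alone, 8 with the header series as a covariate, and, with no fold limit, 4 at an adjusted p under 0.1 and 1 under 0.05. Leaving out libraries gave 0 to 4 (0 without cSirt5KO Sham replicate 3 or 4, and 4 without replicate 5). For genotype after Sham (5) it was 3 with equal totals without mitochondrial and ribosomal RNA, 0 in set 1 alone, 8 in set 2 alone, 0 with the header series as a covariate and 1 at an adjusted p under 0.05 with no fold limit. Leaving out libraries gave 1 to 6 (1 without Control Sham replicate 3, 5 or 6 or cSirt5KO Sham replicate 5, and 6 without Control Sham replicate 1). For genotype after TAC (5) it was 8 with DESeq2 and 0 in set 1 alone, and 3 to 8 when libraries were left out (3 without cSirt5KO TAC replicate 4, and 8 without replicate 1). For the interaction (0) it was 2 with DESeq2 and 0 to 1 when libraries were left out (1 without Control Sham replicate 5 or Control TAC replicate 2). Of the 15 calls for TAC in Control hearts, 8 were kept in set 1 alone and 10 in set 2 alone. Sets alone hold fewer hearts, 2 to 4 a group. The cause of the other changes was not tested. A count near the reported one need not hold the same members. For alternatives other than DESeq2 and edgeR the share of all genes called is not given here, so those counts lack that comparison. Of the called changes that were followed under the alternatives, none reversed its direction, and members that were not called were not followed.

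Hearts of the same replicate number had correlations of -0.43 to 0.47 in 36 pairs across groups, with a median of 0.0258 and 10 over 0.1. The median over pairs of different numbers was 2.5e-05, and 7 of 24 libraries correlated best with their own number. These values do not settle whether hearts of the same number deviate together. With the replicate block the counts were 16, 3, 5, 6 and 1 in the same order, the 1 being Kcnj3 in the interaction (1.01, adjusted p = 0.0888 in limma).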
